A study of Mus musculus with 20 samples.

Results

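This report describes mouse embryonic fibroblasts after 72 h of actinonin, set against the same cells given only the carrier. The comparison takes the 4 samples titled as treated for 72 h and the 4 carrier controls, 8 of the 20 samples of the study, and is described across all genes that could be measured. Both groups were fibroblast cultures of a Balb/c background, grown in serum-containing medium with added uridine, which cells need from outside when respiration no longer supports their own pyrimidine synthesis. The treated group received actinonin at 150 µM for 72 h and the control group ethanol at 3 µl/ml, labelled as 0 h. It is not stated when the controls were harvested, so time in culture and exposure to actinonin cannot be told apart in this comparison. Each sample was RNA pooled from 4 plates, and in each group 2 samples were labelled with the dye Cy3 and 2 with Cy5. The remaining 12 samples, exposed for 6, 24 or 48 h, enter the text where 72 h is set against an earlier time.

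Actinonin is an antibiotic directed at peptide deformylase. This enzyme removes the formyl group with which bacteria and mitochondria begin their proteins. When mitochondrial protein synthesis or respiration is disturbed, mammalian cells commonly phosphorylate the translation factor eIF2 alpha, which lowers general translation and favours translation of the transcription factor ATF4. ATF4 and its partner CHOP then raise genes of amino acid supply, tRNA charging and stress hormones, a programme called the integrated stress response.

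RNA was measured on 2-colour arrays with 2 samples per array. Values below are log2 signals after background correction and normalisation, with the fitted effects of dye and slide removed, and changes are log2 differences of 72 h minus control ± standard error with n = 4 per group. Where 4 values of a group are given, they are the samples 1_Cy3, 2_Cy3, 1_Cy5 and 2_Cy5 in that order. A gene was called at an adjusted p below 0.05 by limma with Benjamini-Hochberg adjustment over all genes tested. All 4 samples of 72 h lay on slide 2, each sharing its array with a sample of 24 h, whereas 2 of the 4 controls lay on slide 1. Between 54.4% and 57.3% of spots were well above background in the 72 h samples and between 50.8% and 66.4% in the controls. The control 2_Cy3 set the upper end, on an array that stood apart from the rest, and without that array 10722 genes were called in place of 11578. The 48 h sample 2_Cy5 lay on the same array, with 70.5% of spots well above background. Nothing in the labels says that the 4 samples of a group came from separate embryos or separate cultures. Nor do they say whether samples numbered alike under the 2 dyes, such as 1_Cy3 and 1_Cy5, were the same RNA. The p-values thus cover only how these samples varied, which may be technical. Of the markers of the labelled cell type, fibroblasts, 14 of 14 were well above background in all 4 controls and in all 4 samples of 72 h. Some markers of other cell types were so too, as given below, so presence alone does not identify the cells.

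Of 24250 genes and unnamed transcripts tested at 72 h, 11578 were called (47.7%), 6109 of them higher (25.2%) and 5469 lower (22.6%). These shares are the background for the list counts at 72 h below. The normalisation centres the values, so the balance of rises and falls is relative. Without scaling between arrays 4650 were called higher and 3581 lower. Most changes were small, with a median size of 0.36 among the called. A change of 2-fold or more was called for 365 genes that rose and 349 that fell. The median change over all genes was -0.000888, and the values of the 2 groups did not overlap for 12085 genes, 49.8% of those tested. Of these 10796 were called, and 6995 called genes had no overlap in values from which dye and slide effects had not been removed. Within slide 2 alone, where 2 controls remain, 11816 were called. Without a slide term 9101 were called, 5098 higher and 4003 lower. A fit of only the 8 samples gave 10065, 5362 higher and 4703 lower. List counts given below for these settings are to be read against these numbers.

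**Figure D1:**
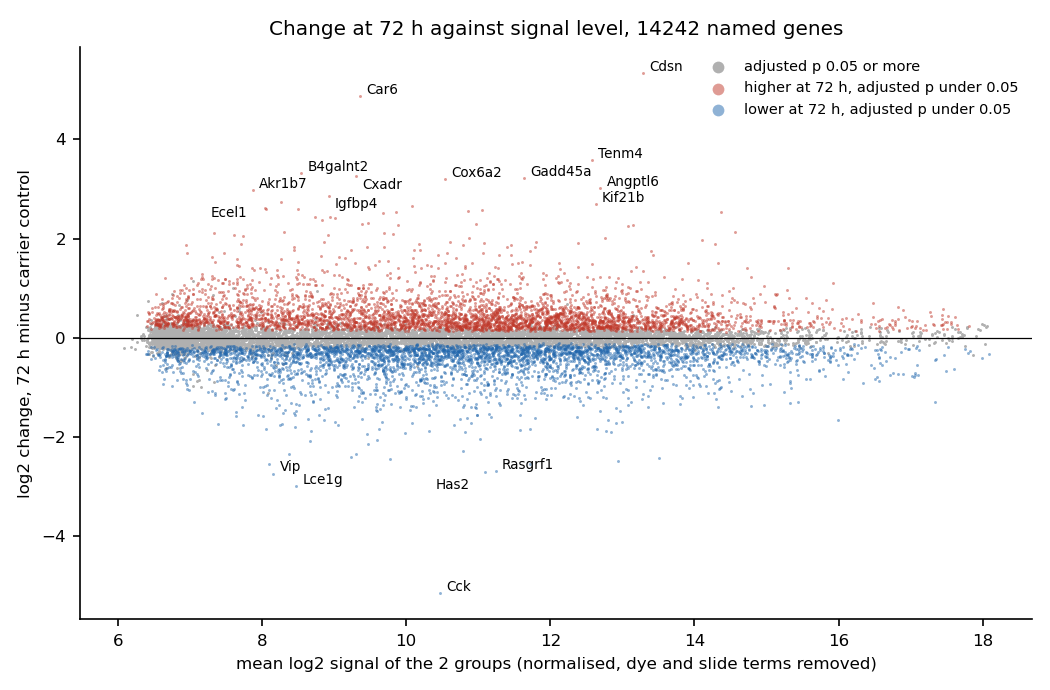
Log2 change at 72 h (vertical axis) against the mean log2 signal of the 72 h and control groups (horizontal axis) for the 14242 tested genes that carry a symbol. Red points were called higher, blue points lower and grey points were not called. Cdsn at 5.34 and Cck at -5.15 lie farthest from 0.

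The largest rise was that of Cdsn, the gene of corneodesmosin, which holds cornified skin cells together. Its log2 signal was 10.84, 10.29, 10.55 and 10.76 in the controls and 16.05, 16.02, 15.87 and 15.89 at 72 h. The leading rises and falls here were chosen among called genes whose groups do not overlap, so that separation is a condition of the choice. The change of 5.34 ± 0.11 is 40.5-fold (adjusted p = 5.54e-16). Car6, a secreted carbonic anhydrase, had control values of 7.04, 7.11, 6.55 and 7.05 and 72 h values of 11.64, 11.77, 11.86 and 11.89. The control 1_Cy5 was the lowest of its group and no control came near a treated sample. Car6 rose by 4.87 ± 0.16, or 29.1-fold (adjusted p = 1.63e-13). Tenm4, a teneurin, which is a large transmembrane protein of cell adhesion, read 10.68, 10.84, 10.78 and 10.81 in the controls and 14.65, 14.32, 14.36 and 14.14 at 72 h. The groups did not overlap, and the sample 1_Cy3 was the highest of the treated ones. Tenm4 rose by 3.59 ± 0.10 (adjusted p = 2.68e-14).

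Of the other leading rises, B4galnt2, a glycosyltransferase, rose by 3.31 ± 0.09 and Cxadr, the coxsackievirus and adenovirus receptor of cell junctions, by 3.26 ± 0.09. Gadd45a, a growth arrest and DNA damage response gene, went from 10.06, 9.85, 10.19 and 9.96 to 13.25, 13.16, 13.27 and 13.31, a rise of 3.22 ± 0.09 (adjusted p = 5.14e-14). Cox6a2, the heart and skeletal muscle isoform of a cytochrome oxidase subunit, read 9.23, 8.68, 9.03 and 8.76 in controls and 12.24, 12.12, 12.24 and 12.04 at 72 h. Its 4 treated values lay within a narrow band well above the controls, a rise of 3.21 ± 0.14 (adjusted p = 5.3e-12). The secreted angiopoietin-like factor gene Angptl6 rose by 3.01 ± 0.10, the aldo-keto reductase gene Akr1b7 by 2.99 ± 0.13 and Igfbp4, which binds insulin-like growth factors, by 2.87 ± 0.08. Ecel1, a membrane metallopeptidase, and Kif21b, a kinesin motor, rose by 2.73 ± 0.11 and 2.69 ± 0.10. B4galnt2, Akr1b7 and Ecel1 were well above background in 3 of 4 controls and in all 4 samples of 72 h.

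The largest fall was that of Cck, which encodes the peptide hormone cholecystokinin. Its log2 signal was 13.08, 13.15, 12.92 and 13.06 in the controls and 7.87, 7.82, 7.81 and 8.03 at 72 h. The treated samples lay closely together and far below every control. Cck fell by 5.15 ± 0.10, or 35.5-fold (adjusted p = 5.54e-16). A second peptide gene, Vip for vasoactive intestinal peptide, fell by 2.74 ± 0.11, from 9.69, 9.63, 9.38 and 9.42 to 6.87, 6.69, 6.79 and 6.76. Adcyap1r1, a receptor of the PACAP peptide, fell by 2.45 ± 0.11. In each case no treated sample reached the lowest control, which the choice of these genes required.

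The other large falls included 3 chemokine genes. Ccl7, Ccl2 and Ccl9 fell by 2.50 ± 0.11, 2.43 ± 0.10 and 2.41 ± 0.10. Ccl2, which attracts monocytes, read 14.68, 14.79, 14.65 and 14.76 in controls and 12.24, 12.29, 12.37 and 12.24 at 72 h, tight groups with a wide gap (adjusted p = 2.1e-12). Il1rl1, the receptor of interleukin 33, fell by 2.55 ± 0.14 and Has2, a hyaluronan synthase, by 2.72 ± 0.13. The Ras exchange factor gene Rasgrf1 fell by 2.69 ± 0.09 and the organic anion transporter gene Slco4a1 by 2.35 ± 0.12. Lce1g and Lce1i, members of the late cornified envelope family, fell by 2.99 ± 0.14 and 2.55 ± 0.15, opposite in sign to Cdsn. The Lce1 genes are close copies of each other, so a probe may read more than 1 of them.

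**Figure D2:**
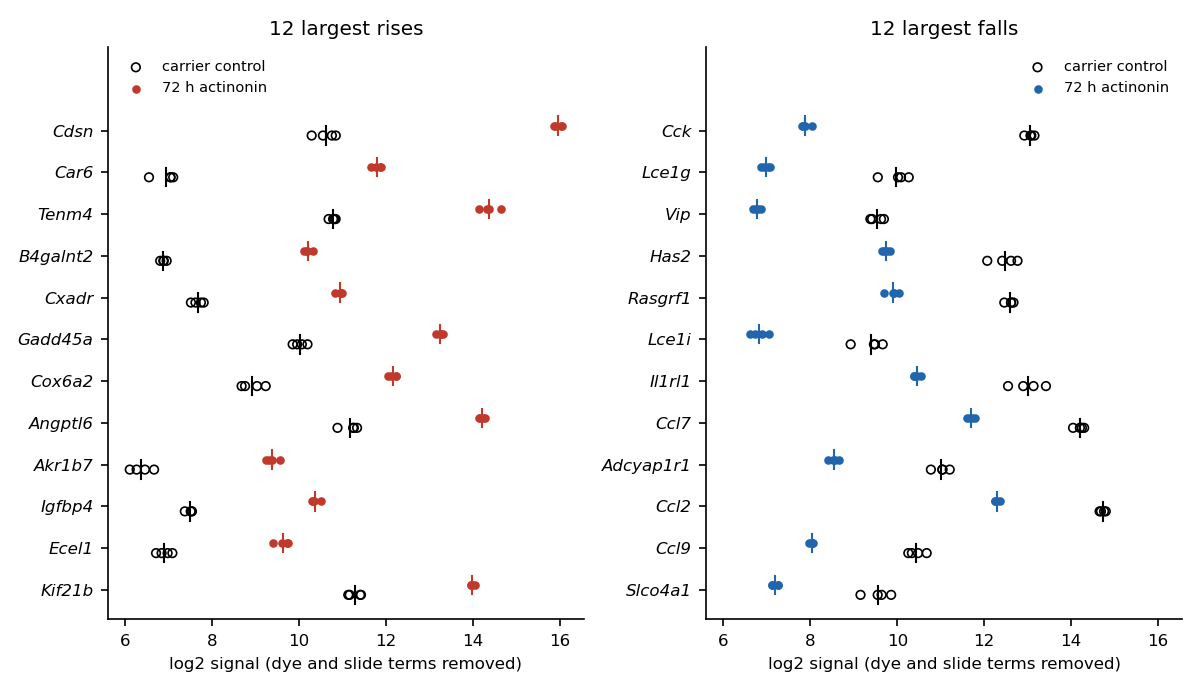
Log2 signal per sample (horizontal axis) for the 12 largest rises (left) and the 12 largest falls (right). Open circles are the 4 carrier controls, filled circles the 4 samples of 72 h, and vertical ticks the group means. Genes were chosen among those whose groups do not overlap, and Cdsn and Cck have the largest changes at 5.34 and -5.15.

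For 36 genes the signal was well above background in all 4 samples of 72 h and in no control, and for 34 the reverse held. For such genes only a bound on the fold can be given, taken against the dimmest signal that counts as above background. These genes were picked by that split itself, so no p-value is given for them. The pancreatic-type trypsin genes Try5 and Try4, close copies of each other, were at least 4.02-fold and at least 2.80-fold higher, and Pdzd7, a scaffold protein gene, at least 2.18-fold. In the other direction Mcpt8, a protease of mast cells and basophils, was at least 2.79-fold lower, the granzyme gene Gzme at least 2.57-fold and the adaptor gene Sh2d1b1 at least 2.28-fold.

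Targets of the integrated stress response were raised almost as a body. Of 37 tested, 32 rose and 0 fell, with a median change of 0.81 against -0.000888 over all genes. Ddit3, which encodes CHOP, read 10.98, 10.69, 10.95 and 10.71 in the controls and 12.85, 12.79, 12.77 and 12.71 at 72 h. The groups were well apart, and the rise was 1.93 ± 0.10 (adjusted p = 3.75e-11). The pseudokinase gene Trib3, a CHOP and ATF4 target, rose by 2.13 ± 0.15 and the transcription factor gene Atf3 by 1.61 ± 0.10. Ppp1r15a, whose product GADD34 directs the phosphatase that restores eIF2 alpha, rose by 2.02 ± 0.10. Vldlr, a lipoprotein receptor, had the largest change of the list at 2.28 ± 0.11. Transcripts of the factors themselves rose less, Atf4 by 0.62 ± 0.10 and Atf5 by 0.76 ± 0.06.

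The metabolic targets rose by varied amounts. Asns, the asparagine synthetase gene, read 15.059, 15.160, 15.380 and 14.998 in controls and 15.952, 15.944, 15.923 and 16.002 at 72 h, a rise of 0.81 ± 0.10 with no overlap. The glutathione-degrading enzyme gene Chac1 rose by 1.17 ± 0.08, the cystine transporter gene Slc7a11 by 1.60 ± 0.10 and Herpud1, which acts in the removal of proteins from the endoplasmic reticulum, by 0.95 ± 0.08. The stress sensor gene Sesn2 rose by 0.62 ± 0.07 and Ndrg1, a stress-responsive gene, by 1.90 ± 0.07. Of the 2 hormones linked to mitochondrial stress, Fgf21 rose by 1.09 ± 0.16, with treated values of 7.86, 8.14, 8.17 and 8.25 and control values of 7.20, 6.65, 7.23 and 6.88 that did not overlap. Gdf15 was not called at -0.11 ± 0.10 (95% interval -0.32 to 0.10, adjusted p = 0.375). Its treated values of 10.10, 10.11, 10.24 and 10.37 overlapped the control values of 10.52, 10.26, 10.30 and 10.15.

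The promoters of these genes could be read for the element that ATF4 and CHOP heterodimers bind, the C/EBP-ATF site. Of the 37 tested members, 32 had a promoter in the RefSeq table (GRCm38.p6, 250 bases before to 50 after the start). The letters TGATGNAA, searched on both strands, were found in 11 of them (34.4%) against 4.51% of 27025 genes with a promoter. The more specific TTGCATCA, whose reverse strand is a case of TGATGNAA, so that the searches overlap, was found in 8 (25.0%) against 1.03%. The 3 windows below belong to the called members with the largest changes that hold TGATGNAA before their start, and capitals mark each match. They lie at chr19:27216796-27216851 on the plus strand for Vldlr, at chr1:191183412-191183467 on the minus strand for Atf3 and at chr3:50443629-50443684 on the minus strand for Slc7a11, and each is written in the gene's direction.
Vldlr: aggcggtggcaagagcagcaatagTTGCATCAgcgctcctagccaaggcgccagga
Atf3: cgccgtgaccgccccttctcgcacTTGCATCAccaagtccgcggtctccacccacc
Slc7a11: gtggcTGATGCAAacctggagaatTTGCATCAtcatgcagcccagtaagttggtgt
The match lies 200, 110 and 47 bases before the start, the distance of its first base. The window of Slc7a11 holds 2 matches. A match describes these letters in this window and does not show that a factor binds there. The list was made of targets of ATF4 and CHOP, so the shares describe the list and not the response at 72 h.

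Amino acid supply split into genes that rose and genes that fell. Of 23 amino acid transporters 12 rose and 9 fell (median 0.51), against 25.2% and 22.6% of all genes tested. Slc7a3, a transporter of cationic amino acids, rose by 1.66 ± 0.09 and the glycine transporter gene Slc6a9 by 1.51 ± 0.12. Slc43a1, a carrier of large neutral amino acids, fell by 1.32 ± 0.22 and Slc38a4 by 1.06 ± 0.09. Serine synthesis and one-carbon metabolism had 23 tested genes, with 11 rises and 3 falls. The serine synthesis genes Psph and Phgdh rose by 1.12 ± 0.10 and 0.51 ± 0.07, and the mitochondrial folate enzyme gene Aldh1l2 by 1.43 ± 0.10. Slc25a32, the mitochondrial folate carrier, fell by 0.53 ± 0.07.

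Enzymes that charge cytosolic tRNAs mostly rose. Of 20 cytosolic aminoacyl-tRNA synthetases 12 rose and 1 fell (median 0.35). Wars, for tryptophan, rose by 1.41 ± 0.08, Eprs by 0.98 ± 0.06 and Lars by 0.97 ± 0.09, whereas Qars, for glutamine, fell by 0.16 ± 0.04. Cytosolic ribosomal protein genes shifted little and mostly upward, with 56 of 80 higher and 3 lower (median 0.23). Changes ran from -0.23 to 0.58. Rps2 fell by 0.23 ± 0.06 and Rps27 rose by 0.55 ± 0.06. Without a slide term 35 of the 80 were called higher, while over all 24250 genes the count higher went from 6109 to 5098. Neither Rps2 nor Qars was called without a slide term or without scaling between arrays, nor was Qars in a fit of only the 8 samples.

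Among mitochondrial quality control genes Lonp1 and Hspa9 rose, while the list as a whole was called about as often as all genes. Pdf, the deformylase that actinonin inhibits, read 11.01, 11.06, 11.01 and 10.96 in the controls and 10.88, 10.83, 10.94 and 10.86 at 72 h and was not called (-0.13 ± 0.06, adjusted p = 0.0951). Every treated value lay below every control, though by less than the fit could call. Metap1d, the mitochondrial aminopeptidase that acts after the deformylase, rose by 0.53 ± 0.07. Chaperones and proteases of the organelle, 27 in all, gave 10 rises and 3 falls (median 0.05), and 13 called of 27 is close to the 47.7% of all genes tested. Lonp1, the matrix protease LON, had a mean log2 signal of 14.59 ± 0.104 (SD, n = 4) in controls and 16.01 ± 0.028 at 72 h, a rise of 1.41 ± 0.07 with no overlap (adjusted p = 3.89e-11). The matrix chaperone gene Hspa9 read 14.55, 14.33, 14.46 and 14.41 in controls and 15.48, 15.51, 15.52 and 15.45 at 72 h. The treated samples lay together above all controls, and Hspa9 rose by 1.05 ± 0.07 and its co-chaperones Hscb and Dnaja3 by 1.04 ± 0.10 and 0.80 ± 0.07. The chaperonin gene Hspd1 rose by 0.23 ± 0.07, a change of 0.17 and not called without the control 2_Cy5. It was also not called without a slide term, with only the 8 samples, with quantile scaling or in the deposited values. The protease gene Clpp was not called (0.09 ± 0.05, 95% interval -0.02 to 0.20), and the prohibitin gene Phb fell by 0.37 ± 0.05. Without a slide term Phb was not called and Pdf was, at -0.21.

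Genes of mitochondrial gene expression moved in both directions by small amounts. The 39 called of 78 ribosomal proteins and the 21 called of 44 expression genes are close to the 47.7% of all genes tested. Of 78 mitochondrial ribosomal proteins 15 rose and 24 fell, with a median near 0 that changed sign with the scaling between arrays, and Mrps6 fell by 1.01 ± 0.06. Of 23 mitochondrial aminoacyl-tRNA synthetases and related enzymes 12 rose and 2 fell, Fars2 for phenylalanine rising by 0.61 ± 0.05. Of 44 genes of mitochondrial DNA upkeep and expression 13 rose and 8 fell. Lrpprc, a mitochondrial mRNA-binding protein gene, rose by 0.57 ± 0.07 and the elongation factor gene Tufm fell by 0.43 ± 0.07. The mitochondrial DNA packaging gene Tfam was not called at 0.03 ± 0.06 (95% interval -0.10 to 0.16). Ppargc1a, for the biogenesis coactivator PGC-1 alpha, was well above background in 3 controls and in 1 sample of 72 h, and was not called.

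Of 49 complex I subunits and assembly factors 15 rose and 5 fell, led by the subunit gene Ndufa6 at 0.72 ± 0.06 and, downward, by Ndufab1 at -0.63 ± 0.07. Without a slide term 11 rose and 2 fell. With 29 of the 49 not called, the share called was not far from the 47.7% of all genes tested. Of 42 subunits of complexes II to V 5 rose and 17 fell (median -0.11; 3 and 17 without a slide term), with Uqcrh, a hinge subunit of complex III, down by 0.74 ± 0.08. Cox6a2 stood alone among them, since the next largest rise was that of Cox7a2l at 0.52 ± 0.05, which was not called without a slide term. Of 31 protein import genes 8 rose and 11 fell, the counts being 4 and 7 when the fit held only the 8 samples. Of 20 genes of fusion, fission and mitophagy 8 rose and 2 fell. Not called were 20 of the 42 subunits of complexes II to V and 10 of these 20 genes. In either direction together, both lists were thus called about as often as all genes. The fission GTPase gene Dnm1l rose by 0.76 ± 0.06, the fusion GTPase gene Opa1 by 0.51 ± 0.05 on its brightest probe, against another probe called lower, and the mitophagy receptor gene Bnip3 by 0.90 ± 0.08.

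Fuel genes moved in both directions. Of 31 genes of the TCA cycle and pyruvate entry 12 rose and 7 fell. The pyruvate dehydrogenase kinase genes Pdk1 and Pdk4, whose products switch the enzyme off, rose by 0.76 ± 0.07 and 0.57 ± 0.05, and the opposing phosphatase gene Pdp2 fell by 0.59 ± 0.10. Of 31 glycolytic and hypoxia-inducible genes 13 rose and 7 fell, or 3 fell without a slide term. The oxidoreductase gene Ero1a rose by 1.77 ± 0.10 and the enolase gene Eno2 by 0.80 ± 0.07, whereas Pfkfb4 fell by 1.26 ± 0.07. Of 22 fatty acid oxidation genes 8 rose and 7 fell, or 3 fell without a slide term. Called were thus 19 of 31, 20 of 31 and 15 of 22 of these lists, against 47.7% of all genes tested. Acot2, a mitochondrial acyl-CoA thioesterase gene, stood out with a rise of 2.51 ± 0.16, while the carrier gene Ucp2 fell by 1.13 ± 0.08. Of 27 genes of nucleotide synthesis and uridine salvage 4 rose and 9 fell, including the mitochondrial thymidine kinase gene Tk2 at 0.69 ± 0.06 and its cytosolic counterpart Tk1 at -0.98 ± 0.05. Not called were 14 of the 27, so this list was called about as often as all genes.

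The cells carried fewer transcripts of division genes relative to all others. Of 40 G2/M and mitosis genes 0 rose and 40 fell, with a median of -1.01 and a range of -1.44 to -0.33. In bulk RNA, fewer dividing cells and less of each transcript per cell cannot be told apart. Birc5, which encodes survivin, fell by 1.35 ± 0.05, the mitotic cyclin gene Ccna2 by 1.23 ± 0.06, the centromeric histone gene Cenpa by 1.22 ± 0.04 and the cytokinesis gene Racgap1 by 1.22 ± 0.05. Mki67, the proliferation marker, read 15.14, 15.02, 14.93 and 15.11 in controls and 13.98, 14.01, 13.93 and 13.94 at 72 h. Every treated sample was below every control, and the gene fell by 1.08 ± 0.07 (adjusted p = 9.34e-10). Among genes of G1/S and replication 2 of 47 rose and 37 fell (median -0.27). The ribonucleotide reductase genes Rrm2 and Rrm1 fell by 1.09 ± 0.07 and 0.81 ± 0.05, the origin licensing gene Cdc6 by 0.98 ± 0.06 and the cyclin gene Ccnd1 by 0.28 ± 0.08 (-0.23 and not called without the control 2_Cy5, nor without a slide term or scaling). Cdt1, another licensing gene, rose by 0.34 ± 0.08.

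Promoters of many G2/M genes carry a cell cycle homology region, bound by repressor complexes in resting cells, together with CCAAT boxes. Of the 40 members 34 had a promoter in the RefSeq table. The letters TTTGAA, searched on both strands, were found in 25 of the 34 (73.5%) against 20.2% of 27025 genes, and CCAAT in 27 (79.4%) against 41.1%. These shares describe the list and not its fall at 72 h. The 3 windows below, of the members with the largest falls that hold TTTGAA before their start, show the match in capitals in the gene's direction. They lie at chr4:117178846-117178899 on the minus strand for Kif2c, at chr4:118437344-118437385 on the minus strand for Cdc20 and at chr15:102296242-102296292 on the plus strand for Espl1 (GRCm38.p6).
Kif2c: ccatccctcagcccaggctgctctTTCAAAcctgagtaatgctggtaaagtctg
Cdc20: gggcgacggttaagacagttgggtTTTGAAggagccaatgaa
Espl1: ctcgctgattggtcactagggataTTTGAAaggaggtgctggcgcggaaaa
The first base of the match lies 103, 18 and 27 bases before the start. These genes, a microtubule motor, an activator of the anaphase-promoting complex and separase, were named for these windows after their values were seen, and changed by -1.44, -1.24 and -1.18.

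Inhibitors of the cell cycle did not rise as a group. Of 17 kinase inhibitors and arrest genes 3 rose and 9 fell, or 1 and 8 without a slide term. Cdkn1a, which encodes p21, read 14.20, 13.99, 14.04 and 14.29 in controls and 13.72, 13.63, 13.55 and 13.67 at 72 h and fell by 0.49 ± 0.09 with no overlap. Cdkn2a rose by 0.24 ± 0.08, or by 0.20 and uncalled without the 72 h sample 2_Cy5. It was also not called without a slide term or with only the 8 samples. Gadd45b fell by 0.80 ± 0.08 while its family member Gadd45a rose. Among 28 p53 targets 14 rose and 9 fell, where 25.2% of all genes tested were called higher and 22.6% lower. The junction gene Perp rose by 1.01 ± 0.09 and the pro-apoptotic gene Bbc3, for PUMA, by 0.93 ± 0.06, whereas Mdm2, which encodes the ubiquitin ligase of p53, fell by 0.45 ± 0.12. Of 16 BCL2 family genes 4 rose and 6 fell (2 and 5 without a slide term), among them the BH3-only genes Bid at 0.50 ± 0.05 and Pmaip1 at 0.40 ± 0.07 and the effector gene Bak1 at -0.38 ± 0.05. Mdm2 and Pmaip1 were not called without a slide term.

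Cholesterol synthesis fell almost throughout. Of 26 genes of the pathway and targets of SREBP2, its transcription factor, 0 rose and 24 fell (median -0.99). Mvk and Pmvk, the kinases of mevalonate, fell by 1.00 ± 0.05 and 1.42 ± 0.07, Fdps by 1.18 ± 0.06 and Lss, which closes the sterol rings, by 1.32 ± 0.07. Hmgcs1, an early enzyme of the pathway, read 14.27, 15.00, 15.35 and 14.85 in controls and 13.85, 13.83, 13.83 and 13.88 at 72 h. The controls were spread widely, with 1_Cy3 the lowest, and after dye and slide effects were removed all lay above the treated samples, whereas the groups overlapped before that. The gene fell by 1.02 ± 0.18 (adjusted p = 0.000151). Of 18 members with a promoter in the RefSeq table only Hmgcs1 held the sterol element letters TCACNCCAC on either strand (5.56% against 1.44% of 27025 genes). It is shown in capitals, 137 bases before the start, at chr13:119690190-119690246 on the plus strand.
Hmgcs1: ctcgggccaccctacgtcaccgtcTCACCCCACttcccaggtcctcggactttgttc
Other spellings of the element were not searched. Fatty acid synthesis moved less evenly, with 2 of 20 genes higher, 9 lower and 9 not called, a share called near that of all genes. The elongase gene Elovl6 fell by 1.20 ± 0.07, the desaturase gene Scd1 by 0.83 ± 0.07 and the synthase gene Fasn by 0.68 ± 0.07, whereas Acacb rose by 0.47 ± 0.09.

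Lysosomal genes rose. Of 34 genes of lysosomal hydrolases and membrane proteins 25 rose and 1 fell (median 0.43), against 25.2% and 22.6% of all genes tested. The protease genes Ctsl and Tpp1 rose by 1.23 ± 0.07 and 0.99 ± 0.06, the sialidase gene Neu1 by 1.06 ± 0.07 and the glucosidase gene Gaa by 0.87 ± 0.06, while Ctsh fell by 0.21 ± 0.07. Ctsh was not called without the control 2_Cy3, the control 2_Cy5 or the 72 h sample 1_Cy5 (-0.20, -0.19 and -0.17), nor without scaling between arrays. Of 28 autophagy genes 13 rose and 4 fell, with 8 rising and 5 falling when no slide term was fitted. The cargo receptor gene Sqstm1 rose by 0.84 ± 0.08 and Map1lc3b by 0.54 ± 0.06. Tfeb, a transcription factor of lysosomal genes, fell by 0.51 ± 0.08. Flcn and Fnip1, partners in the control of that factor and of mTORC1 at the lysosome, rose by 0.89 ± 0.07 and 0.77 ± 0.09.

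Of 28 endoplasmic reticulum chaperones and genes of the unfolded protein response 7 rose and 15 fell (median -0.28), or 8 and 10 without a slide term (median -0.15). All genes tested gave 25.2% called higher and 22.6% lower. The chaperone-associated genes Sdf2l1 and Creld2 fell by 0.95 ± 0.07 and 0.83 ± 0.06, while Derl1, for removal of misfolded proteins, rose by 0.83 ± 0.05. Of 21 cytosolic heat shock genes 0 rose and 14 fell, Hspa1a by 0.78 ± 0.10 and Hsph1 by 0.74 ± 0.07. Of 36 proteasome subunits 5 rose and 25 fell, or 4 rose and 13 fell without a slide term. Psmd12 fell by 0.53 ± 0.06, whereas Psmb8, a subunit of the immunoproteasome, rose by 0.83 ± 0.09. NRF2 targets and glutathione enzymes went both ways, 11 up and 11 down of 31, or 9 up and 5 down without a slide term. Gsta2 and Gsta1, glutathione transferases that are close copies, rose by 1.82 ± 0.09 and 1.78 ± 0.09 and the heme oxygenase gene Hmox1 by 1.34 ± 0.07. The thioredoxin gene Txn1 fell by 0.66 ± 0.05, and Txnip, which encodes its inhibitor, by 0.73 ± 0.12.

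Inflammatory genes fell broadly. Of 26 chemokines, interleukins and NF-kB targets 2 rose and 20 fell (median -0.50), against 25.2% and 22.6% of all genes tested. Beyond the 3 chemokines above, Il6 fell by 0.63 ± 0.18, with control values of 7.82, 8.34, 7.90 and 7.66 and treated values of 7.40, 7.26, 7.25 and 7.16. The control 2_Cy3 was the highest of them all, and the groups did not overlap, but without it Il6 was not called (-0.43). The pentraxin gene Ptx3 went against the list with a rise of 1.19 ± 0.11. Of 28 interferon-stimulated and antigen presentation genes 14 rose and 4 fell (median 0.19), or 7 rose and 6 fell without a slide term (median 0.06). Bst2, for tetherin, rose by 1.07 ± 0.08 and Isg15 by 0.72 ± 0.08, while Irf1 fell by 0.70 ± 0.07.

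The matrix genes that define a fibroblast were mixed. Of 28 genes of collagen chains and their processing 3 rose and 16 fell, or 4 rose and 10 fell without a slide term. Col1a1, the main chain of type I collagen, read 17.53, 17.51, 17.38 and 17.33 in controls and 16.75, 16.68, 16.64 and 16.53 at 72 h, and the gene fell by 0.79 ± 0.09 with no overlap (adjusted p = 1.8e-06). Col7a1 fell by 1.29 ± 0.08, whereas Col5a3 and Col18a1 rose by 1.09 ± 0.09 and 1.00 ± 0.06. Of 38 proteoglycan, elastic fibre and matricellular genes 7 rose, 14 fell and 17 were not called, a share called near that of all genes. Fbn2, a fibrillin, rose by 1.46 ± 0.08, and Spp1 and Thbs2 fell by 1.36 ± 0.10 and 1.07 ± 0.07. Among 28 metalloproteinases, plasminogen activators and inhibitors 11 rose and 11 fell, against 25.2% and 22.6% of all genes tested. Mmp11 rose by 1.51 ± 0.06 and Timp3 by 0.79 ± 0.06, whereas Timp1 fell by 1.12 ± 0.10.

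Of the 14 fibroblast markers themselves 1 rose and 10 fell (median -0.41). S100a4 fell by 1.29 ± 0.15, the growth factor receptor gene Pdgfra by 0.75 ± 0.07 and the transcription factor gene Twist2 by 0.85 ± 0.07, while Fn1 rose by 0.37 ± 0.08. Contractile and cytoskeletal genes changed modestly, 3 up, 10 down and 11 not called of 24, a share called near that of all genes. Smtn fell by 0.90 ± 0.09. The myofibroblast actin gene Acta2 was not called (-0.08 ± 0.06, 95% interval -0.20 to 0.04). Of 27 integrin and focal adhesion genes 7 rose and 13 fell, including Itgb3 by 1.39 ± 0.12 and, upward, Itgb7 by 0.79 ± 0.11. The shares over all genes tested were 25.2% higher and 22.6% lower.

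Signalling genes moved in both directions, where 25.2% of all genes tested were called higher and 22.6% lower. In the insulin-like growth factor system 8 of 19 rose and 8 fell, or 4 fell without a slide term. Igf1 fell by 1.64 ± 0.08, whereas Igfbp4 and the proteases Pappa, which cleaves it, and Htra1 rose, the latter by 1.88 ± 0.09 and 1.66 ± 0.06. Among 25 Wnt genes 6 rose and 11 fell. The R-spondin gene Rspo3, an amplifier of Wnt signals, rose by 2.58 ± 0.15 and the feedback inhibitor gene Nkd1 by 1.77 ± 0.10, while the secreted antagonists Dkk2 and Sfrp1 fell by 1.77 ± 0.09 and 1.42 ± 0.12. Of 32 TGF-beta and BMP genes 5 rose and 16 fell, the activin antagonist gene Fst by 1.73 ± 0.13 and the BMP target Id1 by 0.91 ± 0.07. Of 26 immediate early and Krueppel-like factor genes 4 rose and 14 fell. Klf10, Egr2 and Jun fell by 1.59 ± 0.08, 1.57 ± 0.10 and 1.33 ± 0.08, and Klf4 rose by 0.92 ± 0.07.

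**Figure D3:**
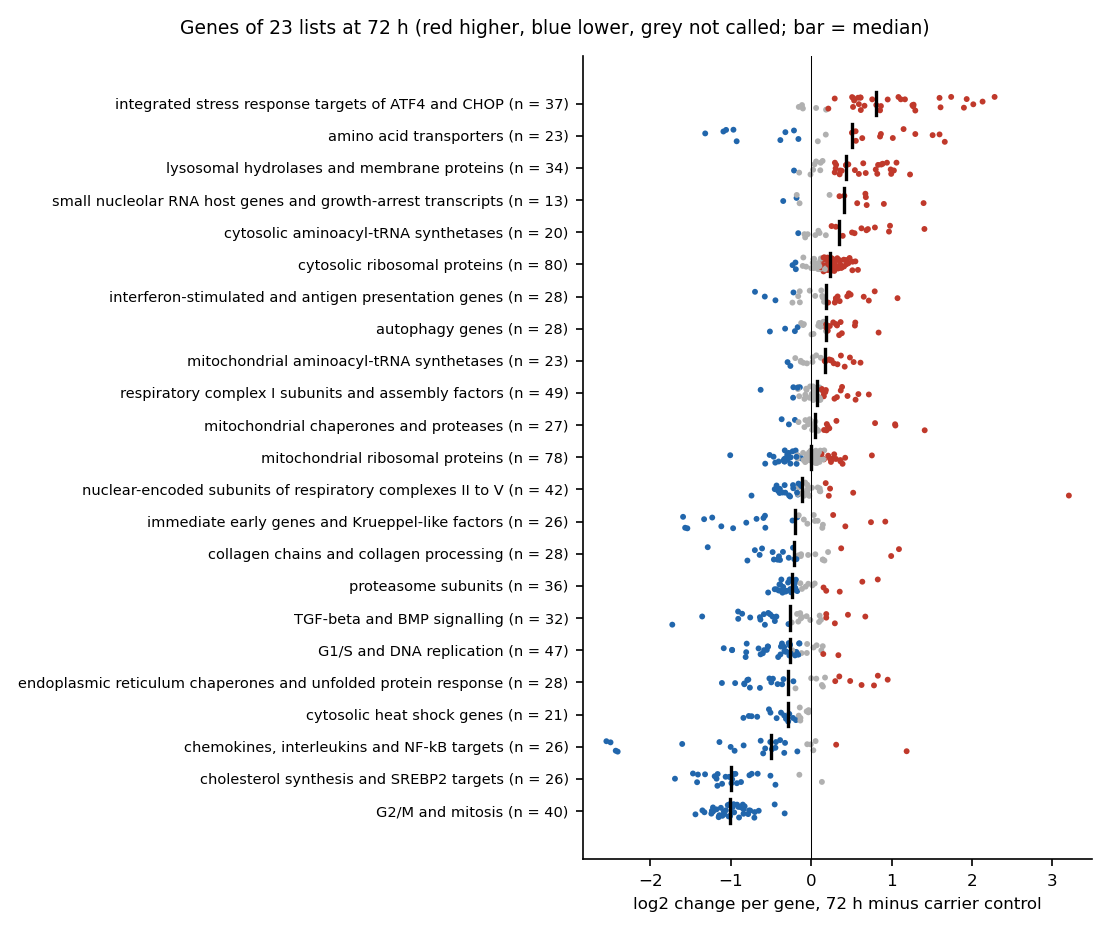
Log2 change at 72 h against control (horizontal axis) for each tested gene of 23 lists (rows, ordered by median). Red points were called higher, blue lower and grey were not called, and the bar is the list median. G2/M genes (median -1.01) and cholesterol genes (median -0.99) lie lowest, and stress response targets (median 0.81) highest.

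Among other lists, 8 of 13 small nucleolar RNA host genes and related transcripts rose and 2 fell (median 0.41), led by Snhg12 at 1.40 ± 0.09. Of 18 clock genes 9 rose and 2 fell, the output gene Dbp rising by 0.97 ± 0.09 and Nr1d1 falling by 0.47 ± 0.07. The 38 genes of ribosome assembly and RNA polymerase I gave 12 rises and 7 falls (15 and 4 without a slide term), Pes1 rising by 0.84 ± 0.09 and the helicase gene Ddx21 falling by 0.78 ± 0.09 on its brightest probe, against another called higher. Among 26 hormone and growth factor genes 4 rose and 15 fell, including Vegfc by 1.07 ± 0.05. Of 27 genes that restrain or feed mTORC1 8 rose and 5 fell, with Deptor down by 0.95 ± 0.10. The 19 called of 38 ribosome assembly genes and 13 of 27 mTORC1 genes are close to the 47.7% of all genes tested. Of 10 cornified envelope genes 1 rose and 5 fell, and of 17 reference genes 2 rose and 4 fell (median -0.06).

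Markers of other cell types were measured as a check on the culture. Of 10 macrophage and leukocyte markers on the array 4 were well above background in all 4 controls and 4 in all 4 samples of 72 h. The defining gene Ptprc was in none of either, and Cd14 fell by 1.35 ± 0.08. Itgam, an integrin gene of myeloid cells, was bright, with mean log2 signals of 15.36 in controls and 15.10 at 72 h, and fell by 0.25 ± 0.07, but was not called without a slide term or without scaling. Of 12 epithelial markers 5 were above background in all samples of each group, and Cdh1 and Krt8 in none. The keratin gene Krt19 was above background in all 8 samples and rose by 0.36 ± 0.09, while Krt7 fell by 0.61 ± 0.13. The log2 of the summed macrophage signals ran from 15.0 to 15.5 in the controls and from 15.1 to 15.2 at 72 h, and that of the epithelial ones from 12.2 to 12.6 and from 12.3 to 12.5. Of 10 endothelial markers 2 were above background in all controls and 3 in all samples of 72 h, with Cdh5 and Tek in none, and of 14 skeletal muscle markers 4 and 4, with Myod1 and Myog in none. Of 12 neural markers 5 and 6 were above background in all samples of a group, with Sox2 in none, and of 11 adipocyte and chondrocyte markers 8 and 6, with Adipoq in none. In the last list Fabp4, a fatty acid binding protein of fat cells, was well above background in all 4 controls and in no sample of 72 h and was at least 1.77-fold lower, and the lipase gene Lpl rose by 0.92 ± 0.09. The part of such cells in the changes of epidermal genes such as Cdsn and of chemokines was not tested.

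The last day of exposure was examined by setting 72 h against 48 h, whose 8 samples all lie on slide 2. The difference comes from the fit of all 20 samples, so controls bear on it through shared arrays and the dye and slide terms. Of the 24250 genes 5624 were called (23.2%), 3121 higher (12.9%) and 2503 lower (10.3%), and only 30 rose and 8 fell by 2-fold or more. The median size of the called was 0.27. Without scaling between arrays the count was 1782, of which 69.7% were higher in place of 55.5%, and without a slide term 2654. Without the array shared by the control 2_Cy3 and the 48 h sample 2_Cy5 the count was 4972.

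Rspo3 rose most from 48 h to 72 h. It read 10.64, 10.77, 10.62 and 10.68 at 48 h and 12.69, 12.33, 12.36 and 11.97 at 72 h. The rise was 1.66 ± 0.14 (adjusted p = 7.98e-07). The leading rises and falls of this step were likewise chosen among called genes without overlap of the groups. Enpp2, which encodes autotaxin, an enzyme that makes lysophosphatidic acid, rose by 1.58 ± 0.12, and Tenm4 rose further by 1.54 ± 0.09. The complement protease genes C1s2 and C1s1, near-identical copies whose probes may share signal, rose by 1.52 ± 0.13 and 1.47 ± 0.13. Neither was called against control at 48 h, where C1s2 stood at -0.01. The matrix protease gene Adamts1 rose by 1.50 ± 0.13, the matricellular gene Ccn3 by 1.43 ± 0.12, Islr by 1.49 ± 0.14 and the neuronal leucine-rich repeat gene Lrrn3 by 1.18 ± 0.13. Adamts1, Ccn3, Islr and Lrrn3 were below control at 48 h, by 0.93, 0.63, 0.69 and 0.45, and above it at 72 h, by 0.57, 0.80, 0.79 and 0.73, although Adamts1 and Lrrn3 were not called against control without a slide term. Cd74, the invariant chain of antigen presentation, rose by 1.35 ± 0.10.

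The 4 samples of 72 h did not share these rises equally. In 10 of the 10 genes the sample 1_Cy3 was the highest and 2_Cy5 the lowest. Among all 30 genes that rose by 2-fold or more 1_Cy3 was highest in 27 and 2_Cy5 lowest in 29, against 6516 and 7020 of 24239 genes measured in all 4 samples. In the 8 falls of 2-fold or more the order was mostly reversed, 2_Cy5 being highest in 6 and 1_Cy3 lowest in 6. Over the 24239 genes these counts were 6624 and 5614. For Tenm4 the 2 samples read 14.65 and 14.14, and for Rspo3 12.69 and 11.97. Without 1_Cy3 4100 genes were called in this comparison, and without 2_Cy5 5204.

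The falls of the last day continued earlier ones for some genes and were recent for others. Cck read 9.75, 9.27, 9.49 and 9.60 at 48 h and 7.87, 7.82, 7.81 and 8.03 at 72 h. It fell by 1.65 ± 0.09 (adjusted p = 1.31e-08). The cardiac troponin gene Tnnt2 fell by 1.097 ± 0.08, the acyl-CoA synthetase gene Acsbg1 by 1.06 ± 0.16, Lce1g by 1.05 ± 0.13 and Rasgrf1 by 1.04 ± 0.09, all on top of changes at 48 h of -1.18, -1.02, -1.94 and -1.64 against control. Tmem171, a membrane protein gene, stood at 0.07 and 1700009N14Rik at -0.08 against control at 48 h, then fell by 1.14 ± 0.15 and 1.06 ± 0.11. The G protein regulator gene Rgs16 and Fosl1, a partner of Jun, fell by 0.97 ± 0.21 and 0.94 ± 0.12.

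**Figure D4:**
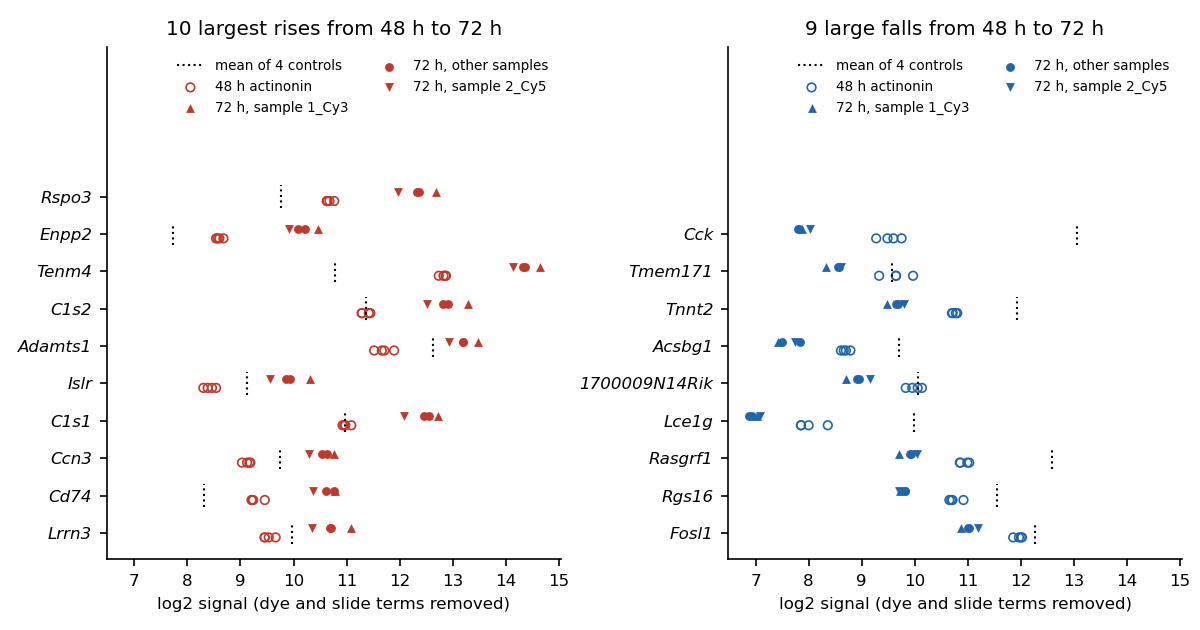
Log2 signal per sample (horizontal axis) for the 10 largest rises (left) and 9 large falls (right) from 48 h to 72 h. Open circles are the 4 samples of 48 h, filled symbols those of 72 h and dotted lines the means of the 4 controls. Among the rises the sample 1_Cy3 (upward triangle) is the highest of 72 h and 2_Cy5 (downward triangle) the lowest in 10 of 10 genes.

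Gene lists shifted between 48 h and 72 h in both directions, where 12.9% of all genes tested were called higher and 10.3% lower. Of 34 lysosomal genes 27 rose and 0 fell (median 0.32), and of 28 endoplasmic reticulum genes 13 rose and 0 fell (median 0.23). Of 28 collagen genes 16 rose and 2 fell, and of 38 other matrix genes 23 rose and 2 fell, the medians being 0.32 and 0.31. Col1a1 rose by 0.67 ± 0.09, Fbn2 by 1.13 ± 0.07 and Pdgfra by 0.36 ± 0.06. Of 14 fibroblast markers 9 rose and 1 fell. Of 28 interferon and antigen presentation genes 13 rose and 0 fell, of 26 cholesterol genes 10 rose and 0 fell and of 20 fatty acid synthesis genes 11 rose and 0 fell. Scd1 rose by 0.32 ± 0.06.

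Division genes fell further. Of 40 G2/M genes 0 rose and 32 fell from 48 h to 72 h (median -0.30), Racgap1 by 0.52 ± 0.04 and Birc5 by 0.41 ± 0.05. Of 26 immediate early and Krueppel-like factor genes 1 rose and 14 fell, Klf10 by 0.84 ± 0.07 and Jun by 0.70 ± 0.07. Of the 37 stress response targets 4 rose and 9 fell (median -0.14). Gdf15 fell by 0.85 ± 0.09, Chac1 by 0.48 ± 0.08 and Fgf21 by 0.43 ± 0.14, while Vldlr rose by 0.40 ± 0.10 and Ddit3 was not called (-0.13 ± 0.09). Fgf21 was not called in this step without the 72 h sample 1_Cy3, 2_Cy3 or 1_Cy5 (-0.35, -0.44 and -0.45), nor without scaling, without a slide term, with a smaller offset or without the filter on dim probes. Vldlr was not called without a slide term or without scaling.

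Side by side, the list medians at 6, 24, 48 and 72 h all rest on the same 4 controls. Stress response targets stood at 1.03, 0.66, 0.82 and 0.81, highest at 6 h. G2/M genes stood at -0.18, -1.05, -0.68 and -1.01, with low points at 24 h and 72 h. Cholesterol genes stood at -0.38, -0.91, -1.24 and -0.99, lowest at 48 h, as were the fibroblast markers at -0.18, -0.45, -0.87 and -0.41. Lysosomal genes stood at 0.02, 0.38, 0.21 and 0.43, highest at 72 h.

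**Figure D5:**
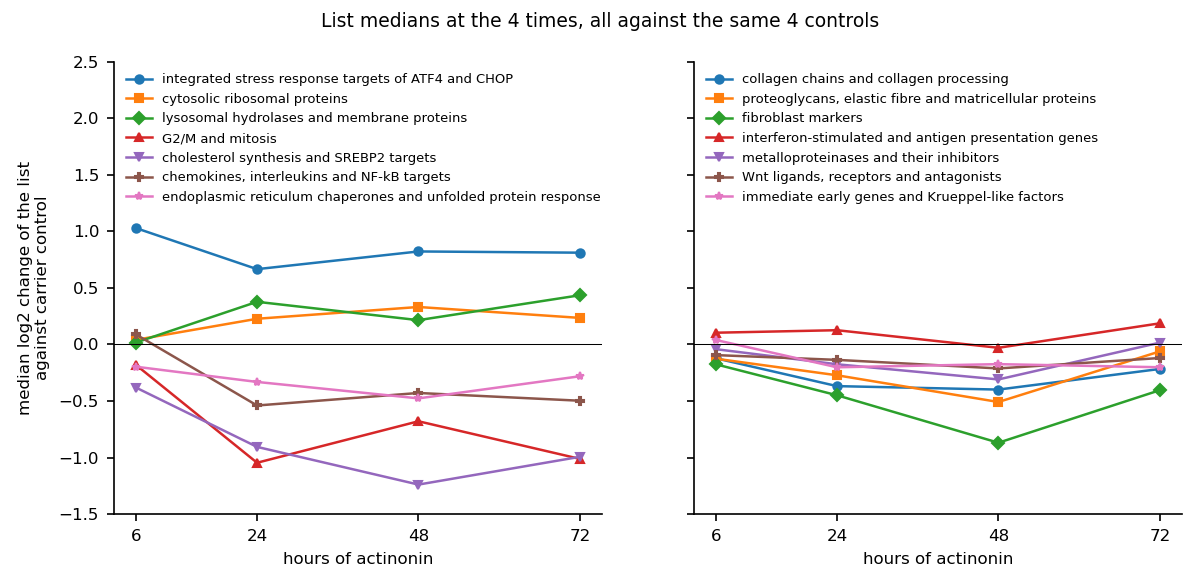
Median log2 change against the carrier control (vertical axis) of 14 gene lists at 6, 24, 48 and 72 h (horizontal axis). The 4 times share the same 4 controls. G2/M genes lie at -1.05, -0.68 and -1.01 at the last 3 times, and fibroblast markers at -0.87 at 48 h and -0.41 at 72 h.

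Against 24 h, on shared arrays, 4952 genes were called at 72 h (20.4%), 2553 higher (10.5%) and 2399 lower (9.89%), with 13 rising and 8 falling by 2-fold or more. Of 31 glycolytic and hypoxia-inducible genes 22 rose and 1 fell (median 0.23). Of 47 G1/S genes 0 rose and 30 fell, whereas of 40 G2/M genes 4 rose and 6 fell. Of 28 collagen genes 12 rose and 1 fell, and of 27 integrin genes 11 rose and 1 fell. Of 31 NRF2 and glutathione genes 2 rose and 15 fell (median -0.11). The residuals of array partners correlated at 0.32 to 0.56 over genes. The array block of the fit used a single correlation of 0.250 for all arrays, which is lower than each of these.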

How the data were processed

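RNA of 20 samples was hybridised to 10 Agilent 2-colour arrays of 62976 spots, 2 samples per array. The deposited scanner files hold spot intensity, extracted from images with Feature Extraction 10.7.3.1 (slide 1) and 11.0.1.1 (slide 2) per the file headers, whose annotation is of build mm9. The authors also deposited log2 expression values, which served as an alternative only; R 2.15 and limma are listed in the submitters' processing notes without a role.

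Median signals were corrected with normexp (offset 50), loess-normalised within arrays and scaled with Aquantile in limma 3.58.1 (R 4.3.3). Control and outlier spots had weight 0. Probes were averaged over spots and 26582 of 55681 were named through RefSeq accessions. A symbol took its brightest kept probe, other transcripts stayed unnamed, and 24250 features were tested, each flagged by the scanner software as clearly above background in 4 or more of the 20 samples. Of 2638 other kept probes of genes called at 72 h against control, 84.3% changed in the direction of the brightest probe. The linear model held group, dye and slide for all 20 samples, with array as a random block (correlation 0.250). Genes were called at an adjusted p below 0.05. The model fit was run on data simulated with the same terms and normal noise, which does not test the normalisation or the choice of terms.

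Named genes were the 12 largest rises and falls at 72 h that met conditions on background, overlap and direction within slide 2, the 10 largest each way against 48 h, up to 3 bounded genes each way, up to 4 per list by smallest adjusted p with the largest opposite member, and fixed genes; a few of these are not reported here. Kif2c, Cdc20 and Espl1 were named for their promoters after their values were seen. The members and lists were chosen with earlier results of these data known. Lists are described by counts and medians, without set tests. Alternatives covered background correction, scaling, filter, slide, blocks and samples left out. Promoters came from RefSeq (GRCm38.p6).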

Additional observations from a re-analysis of the deposited data

Results flagged for a closer look

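Some named genes were called in opposite directions against control at 72 h and at an earlier time, with the difference between the times itself called by limma. Lower than control at 6 h and higher at 72 h were Adamts1 (1.74), Bnip3 (1.32), Ccn3 (1.14), Krt19 (0.60), Lrrn3 (1.35), Pdk1 (1.02) and Tenm4 (3.87), each with the log2 difference of 72 h minus 6 h. Higher at 6 h and lower at 72 h were Ccl2 (-2.92), Ccl7 (-2.97), Ddx21 (-1.15), Fosl1 (-1.54), Gadd45b (-1.11), Racgap1 (-1.39) and Vegfc (-1.36). Lower at 48 h and higher at 72 h were Adamts1 (1.50), Ccn3 (1.43), Islr (1.49) and Lrrn3 (1.18), with the difference of 72 h minus 48 h. Adamts1 and Krt19 were also lower at 24 h, with differences of 0.96 and 0.72.

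In 17 of 414 groups of 4 values examined, 1 sample stood apart from the other three by Dixon's criterion, which chance flags in about 1 group in 20. Among the controls these were the log2 signals of Car6 (6.55 in 1_Cy5), Cdc20 (15.03 in 1_Cy3), Espl1 (11.72 in 2_Cy3), Gzme (8.05 in 1_Cy5), Hsph1 (13.46 in 1_Cy5), Isg15 (9.62 in 1_Cy3), Pdk4 (11.38 in 1_Cy5), Phb (13.91 in 1_Cy5) and Tk1 (14.61 in 2_Cy5). Among the samples of 72 h they were those of Clpp (11.94 in 2_Cy3), Creld2 (13.86 in 1_Cy3), Fbn2 (10.91 in 2_Cy5), Itgb7 (10.27 in 1_Cy3), Mmp11 (14.76 in 1_Cy3), Mrps6 (14.74 in 1_Cy3), Ndufab1 (9.28 in 1_Cy5) and Qars (13.92 in 2_Cy3).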

How the results depend on the processing

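The array number limits the precision, and slide 1 with its older extraction software holds only controls and samples of 6 h, so the slide term rests on those. Against control the count of called genes lay between 8231 without scaling between arrays and 11816 within slide 2, against 11578, and between 10192 and 11735 when 1 sample of either group was left out. Against 24 h it lay between 3484 and 7131, against 4952, over all settings. Against 48 h, where 5624 genes were called, it moved to 1782 without scaling between arrays (69.7% higher in place of 55.5%) and to 2654 without a slide term. With 1 sample left out it lay between 4100 and 5893, and otherwise between 4645 and 6797. The causes were not tested.

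Of 207 genes named, none reversed against control in the settings run. Without a slide term 12 lost the call (Adamts1, Ccnd1, Cdkn2a, Cox7a2l, Hspd1, Itgam, Lrrn3, Mdm2, Phb, Pmaip1, Qars and Rps2) and Pdf gained it, without scaling 5 lost it (Ccnd1, Ctsh, Itgam, Qars and Rps2), and with only the 8 samples 3 did (Cdkn2a, Hspd1 and Qars). Within slide 2 none of the 207 lost it, and in each other setting at most 3 did. With a filter of 8 samples above background 206 of them were tested. Of 32 genes given against 48 h, 2 lost the call without scaling, 2 without a slide term and at most 1 in each other setting. With a replicate block, which treats equal labels such as 1_Cy3 as a pairing, 11318 genes were called against control, 5465 against 48 h and 5255 against 24 h, and none of the 207 changed its call. After dye and slide were removed, residuals of equally labelled samples of 72 h and control correlated between -0.075 and 0.0056, and 0 of 4 samples of 72 h lay closest to the control of its own label, so the labels were not taken as pairs.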
